A study of Mus musculus with 5 samples.

Results

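The Frizzled genes encode the seven-pass membrane receptors that bind Wnt ligands through a cysteine-rich domain outside the cell. The family was chosen with earlier results of these data known. All 10 mouse members, Fzd1 to Fzd10, were then selected by gene symbol, whatever their level, from the 32285 genes counted in each library. They fall into 4 sequence subfamilies, which are Fzd1, Fzd2 and Fzd7, then Fzd5 and Fzd8, then Fzd4, Fzd9 and Fzd10, and last Fzd3 and Fzd6.

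Frizzled proteins recruit Dishevelled. With the co-receptors Lrp5 or Lrp6 they stabilize β-catenin, which activates target genes through TCF/LEF factors, and with other partners they act in planar cell polarity and cell movement. In the gastrulating embryo, Wnt signaling through these receptors is required to form the primitive streak and mesoderm. The receptors are themselves removed from the cell surface by the ubiquitin ligases Znrf3 and Rnf43, which R-spondins hold back.

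The cells were a wild-type mouse epiblast stem cell (EpiSC) line, which models the post-implantation epiblast and had been maintained with FGF2, ActivinA and the Wnt inhibitor XAV939. All 5 cultures were differentiated toward mesoderm for 3 days in N2B27 with 1 µM Chi, a GSK3 inhibitor that stabilizes β-catenin downstream of the receptors, and 8 ng/ml BMP4. They differed in FGF2 dose (0, 0.75, 3 and 12 ng/ml), or received 30 nM of AZD4547, an inhibitor of FGF receptors (FGFRi). The sources give no FGF2 dose for the FGFRi culture, so a contrast with 0 ng/ml cannot be credited to the inhibitor by itself.

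The study asked how FGF dose shapes the cells formed, and the values here describe which Wnt receptors these cells transcribed. Single-cell RNA sequencing gave 1 library of 1 line per condition. No test between conditions was therefore possible, and the 95% intervals below cover counting error only. After filtering, 10653 of 15375 barcodes were retained, between 1696 and 2725 per library, with between 47824660 and 81538748 unique molecular identifiers (UMIs) in a library and a median between 24408 and 29661.5 UMIs per cell. Levels are UMIs summed over the retained cells and scaled to 1000000 UMIs per library or cell class (CPM). As only 3′ ends were counted, a level counts transcripts whatever their length, and levels of different genes were compared without a length correction. Over all pairs of libraries, 7 cell barcodes were shared.

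The marker lists showed what the cultures held. The summed level of 8 epithelial genes, Cdh1 and Epcam among them, ranged from 1024 CPM at 12 ng/ml FGF2 to 2836 CPM with the FGFRi. At 0 ng/ml the sum was 2559 CPM, although the median log2 ratio of these genes from the FGFRi to 0 ng/ml was 0.155. The order of the sums thus does not hold for every gene. For 9 genes of the primitive streak and presomitic mesoderm, T and Tbx6 among them, the sum was 4.41 CPM with the FGFRi, with Msgn1 at 0, and 82.5 to 529.9 CPM along the FGF2 doses. For 8 mesenchyme genes the sum was highest with the FGFRi, at 3212 CPM, and lay between 61.5 and 677.7 CPM elsewhere. Endoderm genes stayed between 0.648 and 3.84 CPM in sum, with Cer1, Ttr and Trh at 0 in the FGFRi library, and neural genes between 19.9 and 59.0 CPM. The lists hold different cells together with different RNA per cell, and at the level of a library fewer cells of a kind and less RNA in each could not be told apart.

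Sequence around the transcription start was read from RefSeq (GRCm38.p6) for the 6 members found in its table, Fzd1, Fzd4, Fzd5, Fzd7, Fzd9 and Fzd10. The letters CTTTG, the core bound by TCF/LEF factors, were searched on both strands from 250 bases before to 50 after each start. They were present in 53.9% of 32851 mouse promoters of this length, so that a match is common. Fzd10 and Fzd7 held 1 match each, 138 and 128 bases before the RefSeq start, Fzd1 held 2, at 241 and 37 bases, and Fzd4, Fzd5 and Fzd9 held none. RefSeq and GENCODE place the starts differently. The RefSeq start of Fzd10 lies 262 bases inside the GENCODE gene, so that its whole upstream window, match included, is transcribed by the GENCODE model, and for Fzd9 the shift in this direction was 183 bases. The RefSeq starts of Fzd7 and Fzd1 lie 277 and 181 bases before the GENCODE ones, and those of Fzd4 and Fzd5 differ by 11 bases and 1 base. The 30 bases around each match are shown for the 3 members that had one, among them Fzd10, on which most results below turn. Capitals mark the core, which reads CAAAG where it lies on the other strand.
Fzd10, chr5:128600953-128600982, + strand: cccggaagaagaggcCAAAGtttgcgcgct
Fzd7, chr1:59482004-59482033, + strand: ggtccacagagaaaaCAAAGcgcgctattg
Fzd1, chr5:4758437-4758466, − strand: cgcagcactCAAAGtagcagtctgtgacca
Fzd1, chr5:4758239-4758268, − strand: ggcttcatagctactCTTTGtgccggagcg

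Besides the core, the Fzd10 window held the ETS motif CCGGAA 152 bases before the RefSeq start and likewise inside the GENCODE gene, which no other of the 6 did and 14.9% of promoters do. Neither the CDX motif TTTATNG, found in 10.9% of promoters, nor the T-box motif TCACAC, found in 14.5%, was in the window of any of the 6. GC boxes (GGGCGG, in 35.7% of promoters) were densest in Fzd5 with 10, Fzd4 with 8 and Fzd7 with 7, and Fzd1 had none. The 249 bases before the Fzd5 start are given as the contrast to the Fzd10 and Fzd7 windows, with no TCF/LEF core and with the GC boxes of either strand in capitals, the last of which runs past the start.
Fzd5, chr1:64737752-64738000, − strand: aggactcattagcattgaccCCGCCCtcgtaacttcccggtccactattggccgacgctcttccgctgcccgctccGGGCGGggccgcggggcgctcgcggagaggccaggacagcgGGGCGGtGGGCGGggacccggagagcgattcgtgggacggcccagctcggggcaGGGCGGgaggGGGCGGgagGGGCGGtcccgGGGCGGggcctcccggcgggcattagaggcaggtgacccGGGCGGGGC
A match describes letters in a window and says nothing of binding, and a window without one says nothing of the factor.

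On GRCm38, 6 members are single-exon genes. They are Fzd1 (chromosome 5, 4753839 to 4758035), Fzd2 (chromosome 11, 102604396 to 102608058), Fzd7 (chromosome 1, 59482424 to 59486955), Fzd8 (chromosome 18, 9212163 to 9218136), Fzd9 (chromosome 5, 135248938 to 135251230) and Fzd10 (chromosome 5, 128600844 to 128604093). Fzd4 (chromosome 7, 89404355 to 89413134) and Fzd5 (chromosome 1, 64730558 to 64737751) have 2 exons, and Fzd3 (chromosome 14, 65192449 to 65262463) and Fzd6 (chromosome 15, 39006034 to 39038188) have 7. In none of the 45 pairs of members did the transcripts share a stretch of 50 bases, so reads were not split between near-identical copies. Fzd3, Fzd5 and Fzd6 each overlap a predicted gene on the opposite strand, and Fzd3 a further one on its own strand, so that some uncertainty attaches to those 3 counts.

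A trio of receptors, the 3 highest members at each FGF2 dose, carried most Frizzled transcripts in every library. Fzd2, a receptor linked to Wnt5a and to both branches of the pathway, Fzd3, a receptor of planar cell polarity and axon guidance, and Fzd10 (ENSMUSG00000081683), known from the primitive streak and the dorsal neural tube, together made up 72.3% of Frizzled UMIs with the FGFRi and between 81.7% and 85.6% along the FGF2 doses. With the FGFRi, Fzd10 made up 4.16% of Frizzled UMIs and was only 6th, below Fzd8 at 7.71% and Fzd6 at 7.13%. All 10 members were detected in all 5 libraries. The summed level of the 10 stayed between 187.3 and 205.9 CPM, and at 12 ng/ml FGF2 it was 0.988 of that at 0 ng/ml (0.963 to 1.01). Other contrasts of the total were small but beyond counting error, with ratios of 0.955 from the FGFRi to 0 ng/ml, 1.08 from 0 to 0.75 ng/ml, 0.910 from 3 to 12 ng/ml and 0.943 from the FGFRi to 12 ng/ml.

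**Figure D1:**
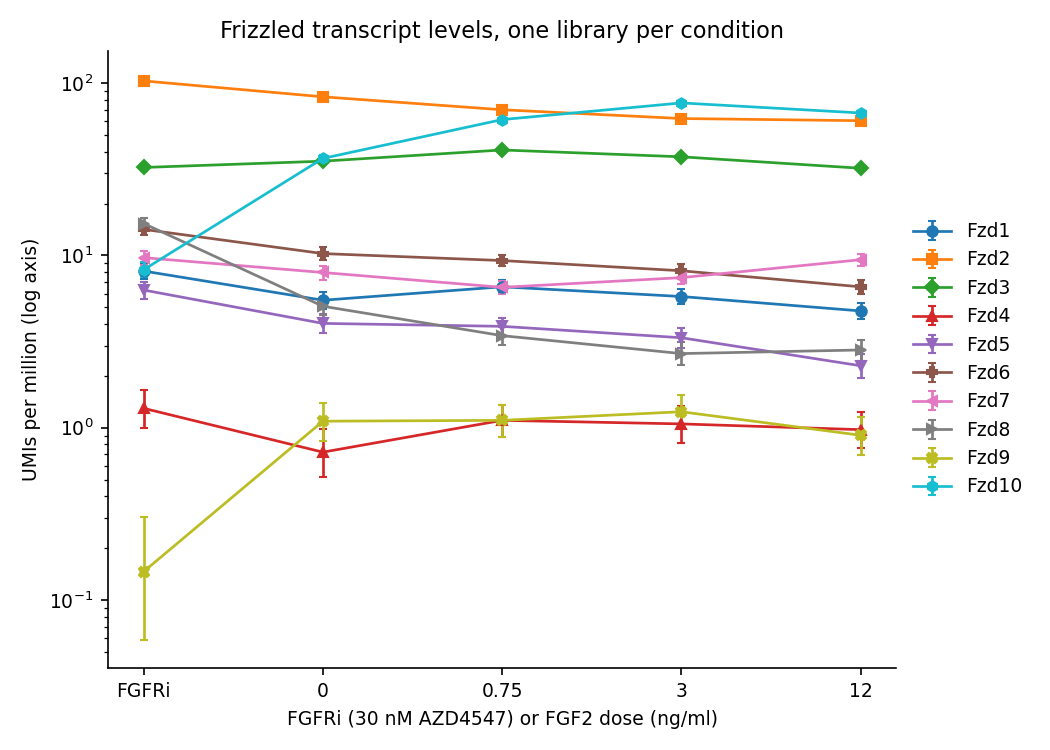
Level of each of the 10 Frizzled genes in CPM (log axis) in the FGFRi library and at 4 FGF2 doses, with 1 library per point and bars for the exact Poisson 95% interval. Fzd10 climbs from 8.26 to 76.7 CPM and crosses Fzd2, which descends from 103 to 60.5 CPM, while Fzd8 descends from 15.3 to 2.83 CPM.

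Fzd10 had the widest spread of levels among the members above 10 CPM. With the FGFRi 8.26 CPM were measured (7.46 to 9.12), without FGF2 36.5 CPM (35.0 to 38.1), and with 0.75, 3 and 12 ng/ml FGF2 61.4 CPM (59.7 to 63.1), 76.7 CPM (74.5 to 78.8) and 67.0 CPM (65.1 to 69.0). No interval overlapped another. The level was thus lowest under the inhibitor, highest at 3 ng/ml and lower again at 12 ng/ml. Relative to the FGFRi library it was 4.42-fold higher at 0 ng/ml (3.97 to 4.94) and 8.12-fold higher at 12 ng/ml (7.32 to 9.02). Between FGF2 doses the steps were smaller, with 1.68-fold from 0 to 0.75 ng/ml (1.60 to 1.77), 1.25-fold from 0.75 to 3 ng/ml (1.20 to 1.3) and 0.874-fold from 3 to 12 ng/ml (0.840 to 0.910).

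Fzd10os, a transcript on the other strand that begins upstream of Fzd10 and runs away from it, did not follow it. Its level was 7.13 CPM with the FGFRi and lay between 3.52 and 4.10 CPM at the 4 FGF2 doses. It was 2.03-fold lower at 0 ng/ml than with the FGFRi (1.70 to 2.42), where Fzd10 was higher. Fzd10os overlaps the gene Gm42498 on its own strand, so that some uncertainty attaches to its count.

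Fzd9 and Fzd4, the relatives of Fzd10 in sequence, were the rarest members. Fzd9, known from the hippocampus and bone, had 7 UMIs with the FGFRi and 62, 90, 80 and 64 UMIs along the FGF2 doses, or 0.146 CPM (0.0588 to 0.302) against 0.904 to 1.24 CPM. Its ratio of 7.46 between FGFRi and 0 ng/ml had a wide interval (3.41 to 19.3), and both levels were under the minimum of 10 CPM used below. Fzd4, the receptor for Norrin in blood vessels of the retina, had between 41 and 90 UMIs and between 0.722 and 1.3 CPM, and was the lowest member at 0 and 3 ng/ml.

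Fzd2 led the family in the FGFRi library and in those with 0 and 0.75 ng/ml FGF2. Its level was 103 CPM with the FGFRi, and 83.2, 70.0, 62.2 and 60.5 CPM along the FGF2 doses. From the FGFRi to 3 ng/ml each level was lower than the one before it beyond counting error, and 3 and 12 ng/ml did not differ (ratio 0.971, 0.930 to 1.01). Over the whole series Fzd2 was 1.70-fold lower at 12 ng/ml than with the FGFRi (1.63 to 1.77), and 1.38-fold lower than at 0 ng/ml (1.32 to 1.43).

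Its relatives differed from it. Fzd7, the Frizzled best known from pluripotent cells and early mesendoderm, had a shallow minimum in the middle of the series, with 9.70 CPM with the FGFRi, then 7.96, 6.52, 7.43 and 9.44 CPM. At 12 ng/ml it was 1.27-fold higher than at 3 ng/ml (1.13 to 1.43), with both levels under 10 CPM. Fzd1 was measured at 8.11 CPM with the FGFRi and between 4.76 and 6.57 CPM at the FGF2 doses.

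The subfamily of Fzd8 and Fzd5, both receptors for β-catenin signaling, was highest with the FGFRi. Fzd8 was measured at 15.3 CPM there (14.2 to 16.5), and the FGF2 series gave 5.07, 3.42, 2.69 and 2.83 CPM. The intervals at 0.75, 3 and 12 ng/ml overlapped, although the ratio from 0.75 to 3 ng/ml was 0.787 (0.648 to 0.955). Fzd8 was 3.02-fold lower at 0 ng/ml than with the FGFRi (2.63 to 3.47), and 5.42-fold lower at 12 ng/ml (4.63 to 6.37). Fzd5 went from 6.29 CPM with the FGFRi to 4.03, 3.88, 3.33 and 2.29 CPM, and was 2.75-fold lower at 12 ng/ml than with the FGFRi (2.26 to 3.35).

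Fzd3 and Fzd6, the receptors that orient cells in a sheet, did not share a profile. Fzd3 lay between 32.0 and 40.9 CPM in all 5 libraries, with the highest value at 0.75 ng/ml, and its levels with the FGFRi and at 12 ng/ml could not be told apart (ratio 0.990, 0.927 to 1.06). Fzd6 was 14.2 CPM with the FGFRi and 10.2, 9.33, 8.14 and 6.57 CPM along the doses, or 2.15-fold lower at 12 ng/ml than with the FGFRi (1.91 to 2.43).

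To set the members beside all other genes, a rule of size was used, which is no test: 1 of the libraries compared had to reach 10 CPM, and the levels had to differ by 2-fold or more. From the FGFRi to 0 ng/ml FGF2, 5 members had the minimum level. Of these, 1 was past the rule upward (Fzd10), where 2.62% of all 8445 genes at this level were, and 1 downward (Fzd8), where 5.38% were. No member was past it at any step between FGF2 doses, where 1.72% of genes were from 0 to 0.75 ng/ml, 0.859% from 0.75 to 3 ng/ml and 0.0883% from 3 to 12 ng/ml. From 0 to 12 ng/ml it was again none of 4 members, against 5.91% of genes in either direction. From the FGFRi to 12 ng/ml, 1 of 5 members was past the rule upward (Fzd10; 7.72% of genes) and 2 downward (Fzd6 and Fzd8; 12.7% of genes). With 5 members or fewer at the minimum level, these counts are too small to set the family apart from other genes. Within the contrasts with the FGFRi, Fzd8 and Fzd10 were the members that differed most in either direction among those at the minimum level.

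The same values expressed as shares of the family showed a change of the leading paralog. Fzd2 made up 51.8% of Frizzled UMIs with the FGFRi (50.8 to 52.8), and 43.9%, 34.3%, 30.2% and 32.3% along the FGF2 doses. The share of Fzd10 was 4.16% with the FGFRi (3.77 to 4.58), then 19.3%, 30.1%, 37.2% and 35.8%. Fzd2 was thus the leading member in the first 3 libraries of the series and Fzd10 in the last 2.

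Counted directly against each other, there were 0.0803 Fzd10 UMIs per Fzd2 UMI with the FGFRi (0.0723 to 0.0890), 0.439 at 0 ng/ml (0.417 to 0.462), 0.877 at 0.75 ng/ml (0.844 to 0.911), 1.23 at 3 ng/ml (1.18 to 1.28) and 1.11 at 12 ng/ml (1.06 to 1.16). No interval contained 1, so the order of the 2 UMI counts was beyond counting error in each library. Whether transcripts of both genes were captured equally well was not tested, so the order holds for UMIs only. Against Fzd3 the order turned at a lower dose, with Fzd10 6th of the 10 members with the FGFRi and not distinguishable from Fzd3 at 0 ng/ml (1.04, 0.975 to 1.10). The pair at the ends of the series, Fzd10 and Fzd8, went from 0.540 Fzd10 UMIs per Fzd8 UMI with the FGFRi to 7.20, 17.9, 28.5 and 23.7.

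Without Fzd10, the summed level of the other 9 members at 12 ng/ml was 0.786 of that at 0 ng/ml (0.763 to 0.810), and 0.632 of that with the FGFRi (0.613 to 0.651). The effective number of paralogs, which would be 10 if all members were equal and 1 if only 1 were transcribed, was 3.19 with the FGFRi and between 3.69 and 3.96 along the FGF2 doses. By this measure the Frizzled UMIs were spread more evenly at the 4 FGF2 doses, 0 ng/ml included, than with the FGFRi. The share of Fzd2, Fzd3 and Fzd10 together was nonetheless larger at these doses, 81.7% to 85.6% against 72.3%. This trio held the 3 highest members at these doses but not with the FGFRi. In all libraries the effective number was far below 10.

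**Figure D2:**
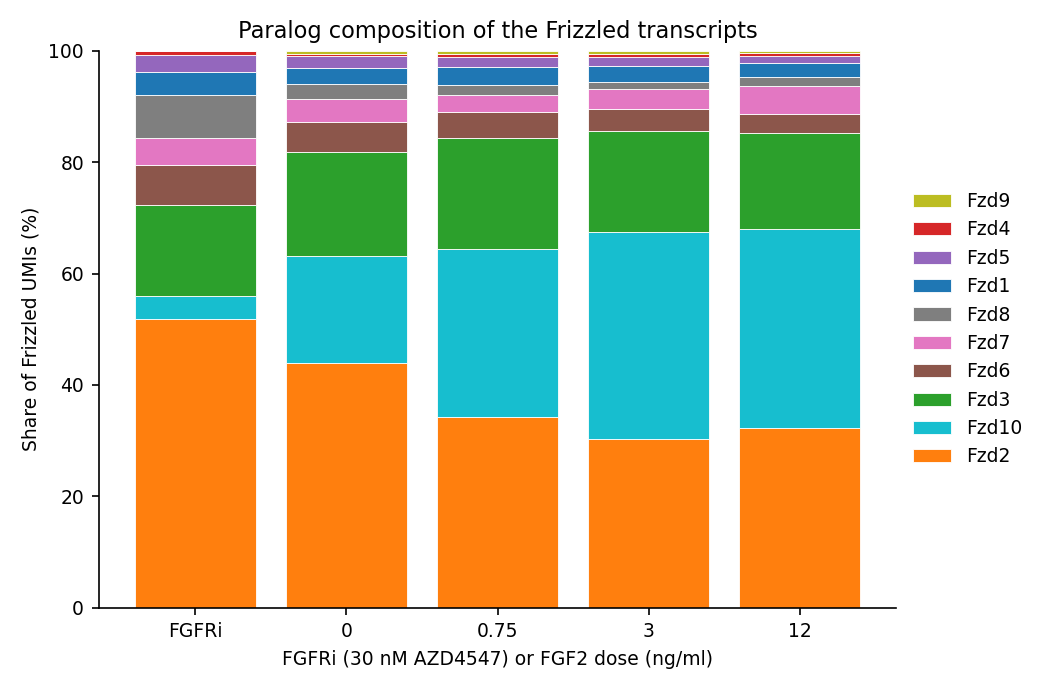
Share of each Frizzled gene in the summed Frizzled UMIs of a library (%), for the FGFRi library and 4 FGF2 doses, with 1 library per bar. The Fzd10 share grows from 4.16% to 37.2% at 3 ng/ml FGF2, and the Fzd2 share shrinks from 51.8% to 30.2%.

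The share of cells with a transcript was compared after thinning every cell to 10000 UMIs, which left out 94 shallower cells over the 5 libraries. Fzd10 was found in 8.54% of cells with the FGFRi (7.24 to 9.99) and in 27.6%, 41.4%, 48.8% (46.7 to 51.0) and 45.3% in the order of rising FGF2. Without thinning, these shares were 16.0%, 51.5%, 68.3%, 77.0% and 74.9%. Also without thinning, Fzd10-positive cells held on average 1.45 UMIs with the FGFRi, 2.38 at 0 ng/ml and 2.63 to 3.03 at higher doses. The highest count in a single cell was 22 UMIs, at 3 ng/ml. The share of positive cells and their mean count both depend on the level and on the depth, so they are not separate observations.

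For Fzd2 the thinned share went the other way, from 60.5% of cells with the FGFRi (58.1 to 62.8) to 52.8%, 46.7%, 44.5% and 42.9% (40.9 to 44.9). Without thinning, its positive cells held 3.38 UMIs on average with the FGFRi and 2.39 at 12 ng/ml. The highest count in 1 cell was 27 with the FGFRi and 10 at 12 ng/ml. Fzd8 was found in 12.2% of cells with the FGFRi, 5.06% at 0 ng/ml and between 2.93% and 3.22% at the other doses. The share for Fzd3 stayed between 27.2% and 32.3%. Free RNA in droplets can add UMIs to cells that do not express a gene, and no cell class known to lack Frizzled transcripts was at hand. No background share could therefore be set, and the lowest share of any member was 0.301%, for Fzd9 with the FGFRi.

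Without thinning, most cells held transcripts of more than 1 receptor. Counted in this way, between 52.7% and 63.8% of cells had UMIs of at least 3 members, and between 1.27% and 3.89% had none. At 10000 UMIs per cell the mean number of members detected was between 1.42 and 1.55. Here 14.4% to 19.8% of cells had none and 35.7% to 38.3% had 1, so the majority did not hold more than 1. Detection of pairs in the same cell was compared with the product of the single shares in 147 combinations of pair and library. The exact Poisson interval on the number of cells with both members contained 1 in 142 of them, was above 1 in 4 and below 1 in 1. It does not use the fixed numbers of cells with each member, and is too wide for common members. An interval that contained 1 therefore does not show independence. The highest of the 4 ratios above 1 was for Fzd3 with Fzd10 at 0 ng/ml. They were found together in 180 cells, 1.36 times the product of their shares (1.17 to 1.58).

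The cells of a library were then split by whether a UMI of a marker gene was present after thinning, and the Frizzled level of the 2 sides was compared within the library. A side with fewer than 50 cells was not used, which removed T and Tbx6 with the FGFRi. A cell can lack a UMI of a marker that it transcribes, so the side without a marker can hold such cells. Their share was not measured and can differ between libraries, so the ratios of different doses are not directly comparable. Cells of 1 library are not replicates of a condition, so the ratios are given per library with counting intervals. For calls, at least 10 CPM on either side and a ratio of at least 1.5 were required.

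Fzd10 was higher in cells with Cdx2, the caudal transcription factor, in all 5 libraries. With the FGFRi, where only 72 cells (4.33%) had a Cdx2 UMI, Fzd10 was at 33.2 CPM in these and 7.32 CPM in the others, a ratio of 4.53 (3.37 to 6.0) from 58 UMIs. Without FGF2 the ratio was 2.94 (2.67 to 3.26), and with 0.75, 3 and 12 ng/ml it was 1.59, 1.31 and 1.34 (1.25 to 1.44 for the last), while the share of cells with Cdx2 went from 51.5% to between 76.4% and 83.4%. In the FGFRi library, Fzd10 was the 1 member of 5 past the call upward, where 10.6% of all genes were. Without FGF2, 2 of 4 members were past it (Fzd3 and Fzd10; 3.77% of genes), and at 0.75 ng/ml 1 of 3 was (Fzd10; 1.99% of genes). None of 3 members was past it at 3 ng/ml and none of 4 at 12 ng/ml, where 1.23% and 1.05% of genes were.

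Fzd10 was likewise higher in cells with T, the primitive streak factor T/Bra, in all 4 libraries that could be used. At 0 ng/ml FGF2 it was at 77.3 CPM in the 237 cells with T and 30.0 CPM in the others, a ratio of 2.58 (2.34 to 2.84), and it was the 1 of 4 members past the call upward, where 5.58% of genes were. At the higher doses the ratio was 1.55, 1.31 and 1.23, and the level in cells without T was between 51.6 and 64.5 CPM. At 0.75 ng/ml Fzd10 was again the 1 member of 4 past the call, against 2.89% of genes. No member was past it at 3 and 12 ng/ml, where 2.18% and 1.58% of genes were higher. In cells with Cdh1, which encodes the epithelial E-cadherin, Fzd10 was lower in 5 of 5 libraries, with ratios between 0.417 at 0 ng/ml and 0.926 at 12 ng/ml. There it was the 1 of 4 members past the call downward at 0 and at 0.75 ng/ml, where 4.09% and 3.7% of genes were lower. In the other libraries it was not past the call.

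Fzd7 was higher, and Fzd6 lower, in cells with Tbx6, a factor of presomitic mesoderm, in all 4 libraries that could be used. In cells with Tbx6 the Fzd7 level was 19.7, 12.7, 13.3 and 13.6 CPM in the order of rising FGF2, against 7.41, 5.99, 5.96 and 7.57 CPM in the other cells. The ratios were 2.65 (1.93 to 3.59), 2.12 (1.66 to 2.69), 2.24 (1.85 to 2.71) and 1.80 (1.54 to 2.10). Fzd7 was past the call upward in all 4 libraries. At 0 ng/ml, 2 of 5 members were (Fzd7 and Fzd10), where 7.99% of genes were higher. At 0.75, 3 and 12 ng/ml it was 1 of 4 members each time, against 3.62%, 2.48% and 2.1% of genes. The Fzd6 ratios were 0.271 (0.108 to 0.561), 0.613, 0.579 and 0.604, and at 0 ng/ml, with 2.87 against 10.6 CPM, it was the 1 of 5 members past the call downward, where 14% of genes were.

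Fzd10 did not follow Tbx6 in the same way. Its ratio in cells with Tbx6 was 2.45 at 0 ng/ml (2.11 to 2.83) and 1.23 at 0.75 ng/ml (1.11 to 1.35), but 0.950 at 3 ng/ml (0.884 to 1.02) and 0.944 at 12 ng/ml (0.887 to 1.01). In cells with Cdx2, on the other hand, Fzd7 was lower in 4 of 5 libraries beyond counting error, with ratios between 0.653 and 0.734 there and 1.01 in the FGFRi library (0.582 to 1.63). The 2 members thus had opposite directions in cells with Cdx2 at all 4 FGF2 doses.

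Fzd8, its subfamily member Fzd5 and also Fzd6 had ratios above 1 in cells with Cdh1 in 5 of 5 libraries. Fzd8 was higher in cells with Cdh1 in 5 of 5 libraries, with ratios between 1.51 (1.3 to 1.75) with the FGFRi, where it was at 18.8 against 12.5 CPM, and 2.66 (2.0 to 3.55) at 12 ng/ml. Fzd5 was higher in 4 of 5 libraries beyond counting error, and lower in cells with Cdh2, which encodes the mesenchymal N-cadherin, in 5 of 5. Fzd6 was higher with Cdh1 in 3 of 5 libraries beyond counting error. With the FGFRi, Fzd6 and Fzd8 were the 2 of 4 members past the call in cells with Cdh1, where 5.23% of genes were higher.

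Fzd2 and Fzd3 kept 1 direction in all libraries for some of the markers and had ratios on both sides of 1 for others. Fzd2 was lower in cells with Cdh1 in 5 of 5 libraries, with ratios from 0.688 to 0.790, and higher in cells with Cdh2 in 5 of 5, from 1.17 to 1.36. With Tbx6 it was higher in 4 of 4, from 1.13 to 1.23, but with T its ratios ran from 0.850 to 1.06, with Hand1 from 0.721 to 1.02 and with Cdx2 from 0.949 to 1.08. Fzd3 was higher in cells with Cdx2 in 5 of 5 libraries, from 1.31 to 1.61, and lower in cells with Hand1, a factor of lateral and extraembryonic mesoderm, in 5 of 5, from 0.712 to 0.846. Its ratios ran from 0.947 to 1.28 with T, from 0.983 to 1.31 with Cdh2 and from 0.983 to 1.27 with Tbx6. Fzd9, at a few UMIs, was 5.13-fold higher in cells with Cdx2 at 0 ng/ml (2.58 to 11.3) and 3.83-fold at 0.75 ng/ml (1.78 to 9.83), with ratios of 1.11 (0.607 to 2.20) and 1.40 (0.737 to 2.88) at the higher doses and 1 UMI in such cells with the FGFRi. Fzd4 was higher in cells with T in 3 of 4 libraries beyond counting error.

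**Figure D3:**
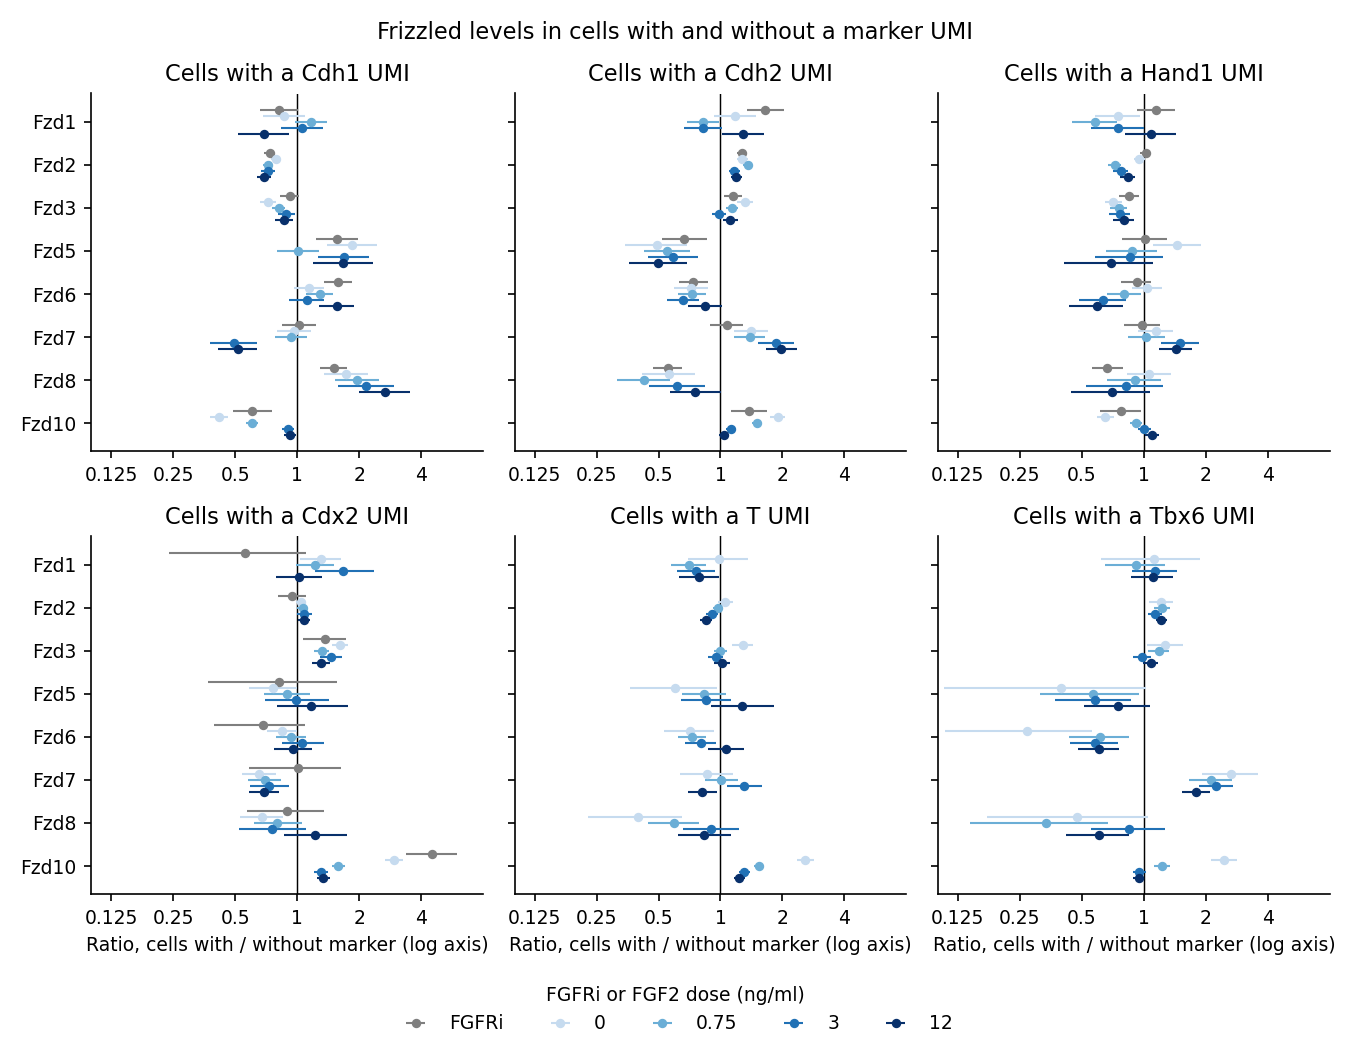
Ratio of the Frizzled level in cells with a UMI of the marker named above each panel to that in the other cells of the same library (log axis), with exact 95% counting intervals, by FGFRi or FGF2 dose; Fzd4 and Fzd9 are not drawn because their counts are small. Fzd10 lies right of 1 for Cdx2 in all 5 libraries, Fzd7 for Tbx6 in all 4 libraries used, and Fzd8 for Cdh1 in all 5.

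Since the share of cells with Cdh1 went from 46.6% at 0 ng/ml FGF2 to 23.5% at 12 ng/ml and that with Cdh2 from 31.5% to 60.7%, the members were also read within classes of cells by cadherin. A class can itself hold different cells at different doses. Over whole libraries, the share of cells with T went from 14.1% at 0 ng/ml to 65.8% at 12 ng/ml. Within a class, other cells and other RNA per cell could thus not be told apart. The median depth of the Cdh1 only and the Cdh2 only class was similar, between 24267 and 30078.5 UMIs per cell over all libraries. In cells with Cdh1 only, the Fzd10 level was 5.87 CPM with the FGFRi, then 20.8, 40.4, 63.0 and 60.8 CPM as FGF2 rose. In cells with Cdh2 only the same series read 10.6, 63.5, 78.3, 78.9 and 68.2 CPM. The dose series of Fzd10 thus differed between the classes, as Cdh2 only cells were already near their highest level at 0.75 ng/ml, whereas Cdh1 only cells still differed between 0.75 and 3 ng/ml beyond counting error.

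From 0 to 12 ng/ml, Fzd10 was 2.92-fold higher in Cdh1 only cells (2.59 to 3.29) and 1.08-fold in Cdh2 only cells (0.995 to 1.16). It was 3.00-fold higher in cells with both cadherins (2.40 to 3.78) and 1.74-fold in cells with neither (1.58 to 1.93). The intervals of the Cdh1 only and Cdh2 only classes did not overlap, and as each rests on 1 library per dose, the difference was not tested across cultures. From the FGFRi to 0 ng/ml, both classes had a higher level, 3.54-fold in Cdh1 only cells (2.84 to 4.46) and 5.97-fold in Cdh2 only cells (5.05 to 7.09).

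The order of Fzd2 and Fzd10 turned in both classes. In Cdh1 only cells the Fzd2 series read 83.5 CPM with the FGFRi, then 69.8, 55.8, 48.2 and 42.7 CPM. It lay above Fzd10 up to the 0.75 ng/ml library and below it from 3 ng/ml. In Cdh2 only cells Fzd2 was at 124, 99.9, 86.2, 69.1 and 67.2 CPM. At 3 ng/ml its interval (66.2 to 72.1) lay below that of Fzd10 (75.8 to 82.1), and at 12 ng/ml its interval (64.6 to 69.9) overlapped that of Fzd10 (65.6 to 71.0). Fzd2 was lower at 12 than at 0 ng/ml in both classes, 1.64-fold (1.48 to 1.82) and 1.49-fold (1.39 to 1.59).

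Fzd8 was lower at 0 ng/ml than with the FGFRi in both classes, from 20.5 to 6.70 CPM in Cdh1 only cells, 3.05-fold (2.51 to 3.72), and from 9.87 to 2.68 CPM in Cdh2 only cells, 3.68-fold (2.56 to 5.42). Fzd7 parted between the classes. Its level in Cdh1 only cells was 9.56 CPM with the FGFRi, then 7.97, 6.29, 3.78 and 4.51 CPM, and in Cdh2 only cells 9.87, 10.8, 8.10, 9.95 and 12.5 CPM. The intervals of both classes overlapped with the FGFRi, and at 12 ng/ml (3.35 to 5.92, and 11.4 to 13.8) they lay far apart.

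**Figure D4:**
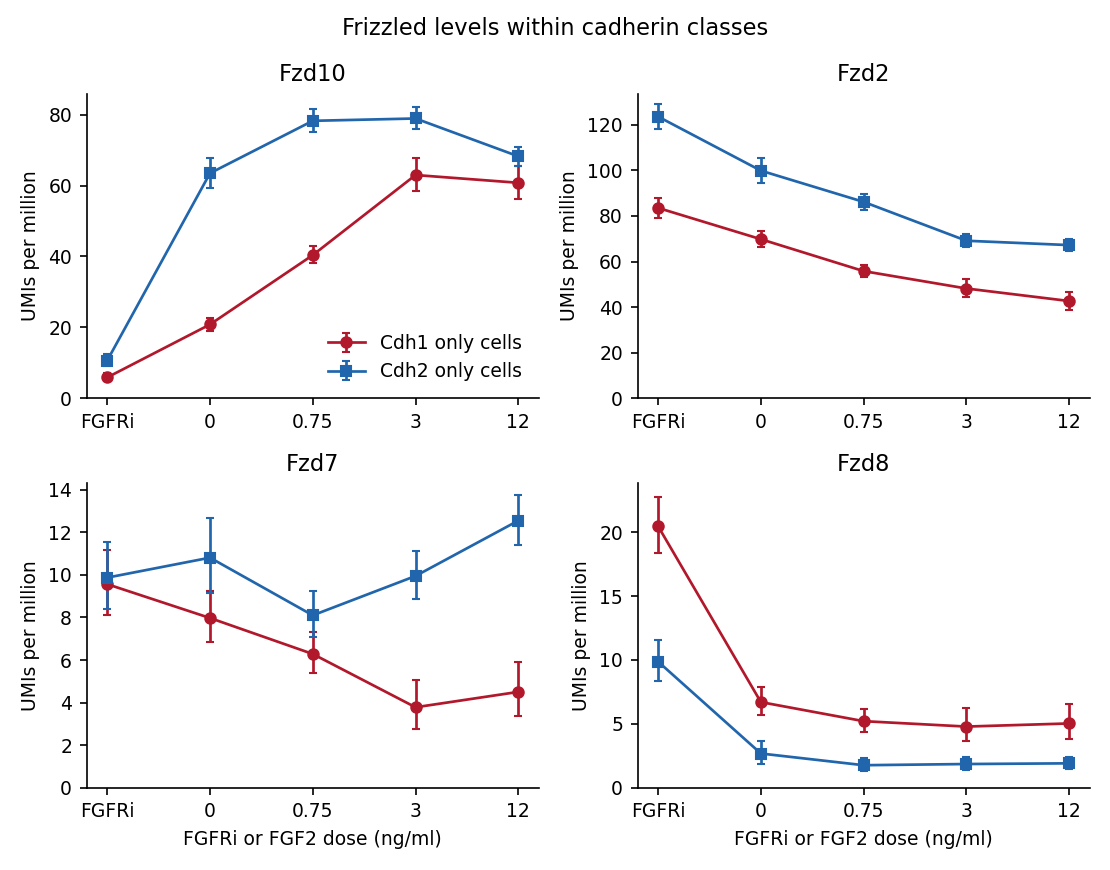
Level of Fzd10, Fzd2, Fzd7 and Fzd8 in CPM in cells with Cdh1 only and with Cdh2 only after thinning, for the FGFRi library and 4 FGF2 doses, with exact Poisson 95% intervals. The Fzd10 curves draw closer at the high doses (60.8 and 68.2 CPM at 12 ng/ml) without their intervals overlapping. The Fzd7 curves part (4.51 and 12.5 CPM). Fzd2 is higher in Cdh2 only cells throughout, and Fzd8 in Cdh1 only cells. The Fzd8 curves lie farther apart with the FGFRi (20.5 and 9.87 CPM) than at 12 ng/ml (5.04 and 1.92 CPM).

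The partners of the receptors were described from lists of pathway genes. Of 5 co-receptors and other Wnt receptors at the minimum level between the FGFRi and 0 ng/ml, 1 was higher and 1 lower by the rule of size, where 2.62% and 5.38% of all genes were. These were the receptor tyrosine kinases for Wnt5a, Ror2 with 6.46 and 13.3 CPM, and Ror1 with 13.7 and 3.33 CPM. From 0 to 12 ng/ml none of 4 was past the rule, against 1.87% of genes higher and 4.04% lower. Lrp6, the main β-catenin co-receptor here, stayed between 39.6 and 48.1 CPM in all 5 libraries. Ptk7, a polarity co-receptor, had its lowest level, 44.1 CPM, with the FGFRi and its highest, 153 CPM, at 3 ng/ml, and was past the rule from the FGFRi to 12 ng/ml (135 CPM, 3.07-fold) but on neither of the shorter contrasts.

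In the system that controls receptor turnover, 3 genes had the minimum level. From the FGFRi to 0 ng/ml and from 0 to 12 ng/ml, 1 was higher and none lower, beside 2.62% and then 1.87% of all genes higher. From the FGFRi to 12 ng/ml, 1 was higher and 1 lower, beside 7.72% and 12.7% of all genes. The lower one was Lgr4, with 30.3 and 14.1 CPM. The higher one was each time Rspo3, a secreted R-spondin, with 24.9 CPM with the FGFRi, then 93, 216.5, 410.5 and 431.9 CPM. The ligase gene Znrf3 lay between 16.3 and 22.9 CPM throughout. Rspo3 and Fzd10 both increased up to 3 ng/ml, but Rspo3 was higher at 12 than at 3 ng/ml where Fzd10 was lower.

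In the list of secreted antagonists and Kremen genes, 5 were at the minimum level from the FGFRi to 0 ng/ml. Of these, 1 was lower, beside 5.38% of all genes. From 0 to 12 ng/ml it was again 5, but not the same 5, and 2 were higher, beside 1.87% of all genes. Dkk2, an inhibitor at the co-receptor, had 45.4 CPM with the FGFRi, 8.77 CPM without FGF2 and between 0.325 and 0.675 CPM in the other libraries. Frzb and Sfrp1, decoys with a Frizzled-like Wnt-binding domain, went from 5.95 to 39.2 CPM and from 6.0 to 16.1 CPM between 0 and 12 ng/ml. Of 8 genes for Dishevelled and planar cell polarity partners, none was past the rule from the FGFRi to 0 ng/ml and 1 was lower from 0 to 12 ng/ml, Daam1, a formin activated downstream of Dishevelled, with 64.8 and 29.1 CPM, beside 4.04% of all genes lower.

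Of 6 β-catenin target genes, 2 were higher on each contrast, beside 2.62% and 1.87% of all genes, and none was lower, with a median log2 ratio of 0.71 from the FGFRi to 0 ng/ml and 0.66 from 0 to 12 ng/ml, against 0.00039 and 0.015 over all genes at the minimum level. The levels of Sp5 in the FGFRi, 0 and 12 ng/ml libraries were 10.9, 33.8 and 97.9 CPM. Ccnd1, the G1 cyclin, was higher at 0 ng/ml than with the FGFRi (102 against 29.4 CPM), and Lef1, a TCF/LEF factor, was higher at 12 than at 0 ng/ml (176 against 83.0 CPM). Axin2, a feedback inhibitor and common readout of the pathway, had its highest levels of 91.7 and 90.1 CPM at 0.75 and 3 ng/ml and was 69.6 CPM at 12 ng/ml. Chi was present at the same dose in all cultures.

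Wnt ligands moved in both directions. Of 7 at the minimum level between the FGFRi and 0 ng/ml, 1 was higher (Wnt5b, 1.69 and 13.1 CPM) and 3 lower, beside 2.62% and 5.38% of all genes. These were Wnt3 (50.02 and 20.6 CPM), Wnt9a (13.0 and 2.68 CPM) and Wnt10b (10.6 and 4.28 CPM). From 0 to 12 ng/ml, 2 of 6 were higher, Wnt5b (13.1 and 54.5 CPM) and Wnt3a (1.23 and 11.4 CPM), and 2 lower, Wnt4 (134 and 31.7 CPM) and Wnt6 (126 and 42.0 CPM), beside 1.87% and 4.04% of all genes. Wnt3a, a ligand of the primitive streak, had 0 UMIs with the FGFRi, where a floor of 3 counts is 0.0627 CPM. The ligands with the highest levels thus went from Wnt6 and Wnt4 with the FGFRi to Wnt5a, at 115 CPM, and Wnt5b at 12 ng/ml.

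The genes whose profile over the 5 libraries was closest to each of the 5 members that reached 10 CPM were found among 8761 genes, by the root mean square difference of centered log2(CPM + 1). For Fzd10 these were Lhpp (0.084), Hoxa3 (0.11) and Fam222a (0.11), and the Lhpp series read 5.48, 22.3, 39.4, 55.6 and 46.8 CPM. Fzd8 was closest to Cdkn1c (0.055), Trp53inp1 (0.055) and Bdnf (0.060). The profile of Fzd2 was matched by Tfe3 (0.0070), Flot2 (0.016) and Rbbp7 (0.017), that of Fzd3 by Uty (0.020), Braf (0.020) and Gm11808 (0.025), and that of Fzd6 by Atxn7 (0.026), Ttl (0.038) and Rps6ka3 (0.045). Over 5 points a close profile is easily found, and it is given as a description.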

How the data were processed

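Single-cell RNA sequencing (10x Genomics 3′ v3.1) of 5 libraries was re-analyzed. The authors deposited raw UMI counts per gene and called barcode, aligned to mm10 according to the submitters' processing notes and with Cell Ranger 5.0.1 per the file headers, and had applied no normalization and none of their cell filters. Barcodes with at least 2500 detected genes and at most 10% mt- UMIs were retained, as in the study's methods, and no doublet caller was run. Counts were summed per library and divided by total UMIs (CPM). No pseudocount entered any ratio, whereas a pseudocount of 1 was used for profile likeness. Intervals (95%) are exact Poisson for levels and for joint detection of a pair, exact conditional for ratios and exact binomial (Clopper-Pearson) for shares. A level of 0 is given with a fixed floor of 3 counts, which is 0.0368 to 0.0627 CPM by library and is not the Poisson limit. UMIs from 1 cell share their amplification and capture, so intervals cover counting error only. For shares and marker classes, each cell was thinned to 10000 UMIs (seed 1).

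Levels and ratios were computed on the whole table, and the rule of size was run on simulated counts with Poisson error only. The simulation held no variation between cells or cultures, so it checked the computation and not the rule on real libraries. Positions are from GENCODE on GRCm38, in which 32158 of 32285 identifiers were matched. The genes named are all 10 members, pathway-list genes past the rule of size, or in a few cases named for their role after their values were seen (Lrp6, Ptk7, Znrf3, Axin2, Wnt5a and Fzd10os), and the 3 genes closest in profile to each member that reached 10 CPM. The members and lists were chosen with earlier results of these data known. Alternatives changed the mitochondrial limit, the barcode filter, the weight of cells, the scaling (TMM, edgeR 4.0.16), the deepest cells, the rule of size, the thinning depth and the marker threshold. Software was Python 3.11.15, NumPy 2.4.6, SciPy 1.17.1, pandas 2.3.3, Matplotlib 3.10.9 and R 4.3.3.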

Additional observations from a re-analysis of the deposited data

Results flagged for a closer look

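Some comparisons had opposite directions in different cell classes or libraries beyond counting error. With 1 library per condition, the difference was not tested in any of them. Fzd7 at 3 relative to 0.75 ng/ml FGF2 was 0.602-fold in Cdh1 only cells and 1.23-fold in Cdh2 only cells, and at 12 ng/ml relative to the FGFRi it was 0.471-fold and 1.27-fold in the same classes. In cells with T relative to those without, the Fzd7 ratio was 1.31 at 3 ng/ml and 0.817 at 12 ng/ml.

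For Fzd10, the ratio of cells with Hand1 to those without was 0.775 with the FGFRi, 0.650 at 0 ng/ml and 0.913 at 0.75 ng/ml, but 1.10 at 12 ng/ml. For Fzd1, the ratio of cells with Cdh2 to those without was 1.65 with the FGFRi and 1.29 at 12 ng/ml, but 0.825 at 0.75 ng/ml. The 12 ng/ml value turned to 0.992 when at least 2 UMIs of Cdh2 were required.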

How the results depend on the processing

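Fzd2 stayed above Fzd10 in the FGFRi, 0 and 0.75 ng/ml libraries and below it in the others under the 4 alternatives run on composition. Among ratios away from 1 beyond counting error, 1 changed direction, Fzd1 in cells with Cdh2 at 12 ng/ml FGF2, with a ratio of 0.992 when at least 2 UMIs of the marker were required in place of 1. With that threshold the Fzd10 ratio in cells with T at 0 ng/ml was 2.33. Of 348 values on ratios between libraries 7 moved, of 200 on composition 4, of 100 on shares of cells 47 and of 536 on marker classes 34, and TMM scaling moved none of 66 ratios. The cause was not tested where a value moved, except that thinning further leaves fewer UMIs. With a ratio of at least 1.5 in the rule of size, 1 member was called from 0 to 0.75 ng/ml and 2 from 0 to 12 ng/ml, in place of 0, and with no minimum level 5 in place of 3 from the FGFRi to 12 ng/ml. The log2 ratio of Fzd10 from 0 to 12 ng/ml, 0.88, was 0.80 with every cell weighted alike and 0.80 without the top 5% of cells by UMIs. The Fzd2 share of Frizzled UMIs with the FGFRi was 52.9% at a limit of 5% mitochondrial UMIs, and with every cell weighted alike it was 42.6% at 0 ng/ml and the Fzd10 share at 3 ng/ml was 36.4%. Thinned to 5000 UMIs, fewer UMIs per cell left Fzd2 in 38.2%, 32.4%, 28.0%, 27.3% and 25.4% of cells from the FGFRi to 12 ng/ml, and Fzd10 in 3.88%, 17.3%, 24.7%, 30.5% and 26.0%. No paired analysis was possible because each condition has 1 library. For the same reason no library could be left out, and depth limits Fzd4 and Fzd9, with 41 to 90 and 7 to 90 UMIs per library.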
